A study of Mus musculus with 35 samples.

Results

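The hippocampus and the cortex of mice on a high-fat high-sugar diet (HFHS) were compared in cells enriched for astrocytes. The comparison holds 13 of the 35 libraries of the study, 7 labelled hippocampus on HFHS and 6 labelled cortex on HFHS, with libraries assigned by their region and diet labels alone. All mice were C57BL/6JRj males, with no transgene or mutation named, and those of both groups received the HFHS diet (58%) for 4 months from 8 to 9 weeks of age. Each replicate is a pool of tissue from 2 animals and not a mouse. Standard chow (SC) libraries of the same regions, 5 of hippocampus and 6 of cortex from mice of the same strain, sex and age, served only to ask whether the region difference was also seen without the diet. Magnetic sorting took the cells that carry ACSA2 on their surface, an antigen of astrocytes and the product of Atp1b2. MS columns and the usual volumes served for hippocampus, but LS columns and larger volumes for cortex, so that region and column cannot be told apart here. RNA of the bound cells was copied with the SMART-Seq v4 kit, which does not keep strand.

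Astrocytes clear glutamate and GABA from synapses, buffer potassium, supply lactate and cholesterol to neurons and wrap blood vessels with their endfeet, and those of different forebrain regions are known to differ in the genes they express. The dissected hippocampus borders the lateral ventricle, whose wall is lined by ependymal cells with beating cilia and which holds the choroid plexus, the epithelium that secretes cerebrospinal fluid. Immediate early genes such as Fos are transcribed within minutes of neuronal activity, growth factors or cell stress, and their induction during enzymatic dissociation of brain tissue is well known.

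Reads assigned to transcripts numbered 47578560 to 65982495 in each of the 13 libraries. Levels are given as CPM, counts per 1000000 of the library, as the lowest, median and highest library, and a log2 fold change is hippocampus over cortex with its standard error (SE) from the quasi-likelihood fit of edgeR, with p adjusted over all genes tested. The labelled cell type was only partly met. The 18 astrocyte markers were all detected in every library, and their summed TPM, a unit that accounts for transcript length, was 1457, 3160 and 11403 in hippocampus and 14389, 19271 and 24422 in cortex. The 18 oligodendrocyte markers summed to 39728, 80452 and 97163 TPM in hippocampus and to 7968, 37376 and 71966 TPM in cortex. Oligodendrocyte markers exceeded astrocyte markers in all 7 hippocampal libraries and in cortical libraries 1 to 4, but not in 5 and 6. A pair of cortical libraries stood apart. Library 6 had the shortest mean transcript length, 2179 bases against 2719 to 2963 in the other cortical and 2560 to 2966 in the hippocampal libraries, and library 3 had the highest oligodendrocyte markers of its group. Counts without 1 or both of them are given for some results, not for all that change.

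Genes of motile cilia, ependyma and choroid plexus and immediate early genes were higher in hippocampus, and genes of astrocytes and neurons were lower. Of 18506 genes tested, 1831 were higher in hippocampus (9.89%) and 1770 lower (9.56%), together 19.5%. The median log2 fold change over all genes was 0.01. The fitted change exceeded 4-fold in 905 of the higher and 344 of the lower genes, as a point estimate; tested against a fold of 2, 582 genes passed as higher and 160 as lower. The CPM ranges of the groups did not overlap for 1007 genes with hippocampus higher (5.44%) and for 327 with cortex higher (1.77%). Counts of list members relative to all RNA are to be read against these shares. With cortical libraries 3 and 6 both left out, a choice made after seeing the data, 2613 genes were higher and 2555 lower. The 12 largest and 12 smallest changes among genes whose mean log2 CPM reached 3 are named below with the groups they sit in.

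Immediate early and heat shock genes were higher in hippocampus. Of 22 genes in this list, 18 were higher, against 9.89% of all genes, and 0 lower, with a median log2 fold change of 2.81. For 17 of them the lowest hippocampal library lay above the highest cortical one, against 5.44% of all genes. Fos, the AP-1 subunit used as a marker of recent activity, had 714, 1204 and 2565 CPM in hippocampus and 42.2, 74.9 and 148 CPM in cortex. The log2 fold change was 4.00 ± 0.38 (SE, adjusted p = 0.000119). Fosb, its close relative, had 7.03, 16.3 and 27.3 CPM against 0.174, 0.274 and 0.652 CPM, and its 5.41 ± 0.46 was the highest of the genes that the naming rule admits. Atf3, a stress-induced transcription factor, had 72.4, 129 and 197 CPM against 2.19, 5.31 and 7.27 CPM (4.53 ± 0.34). None of these ranges overlapped.

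Other members of the response moved the same way. Egr1, a zinc finger factor induced with Fos, had 383, 562 and 808 CPM against 15.2, 55.3 and 81.2 CPM (3.37 ± 0.34). Dusp1, a phosphatase that switches off MAP kinases, had 327, 1084 and 1334 CPM against 117, 142 and 287 CPM (2.38 ± 0.32). Jun, the AP-1 partner of Fos, had 421, 700 and 1039 CPM against 48.8, 137 and 226 CPM (2.22 ± 0.31). Hspa1a, an inducible heat shock protein, had 420, 604 and 1305 CPM against 12.8, 59.5 and 122 CPM (3.39 ± 0.43), although reads shared with its near-identical copy Hspa1b make the split between the pair uncertain. Socs3, a feedback inhibitor of cytokine signalling, had 36.1, 48.8 and 89.0 CPM against 0.0521, 2.71 and 4.44 CPM (4.35 ± 0.59). The members that did not pass were Klf6 (0.50 ± 0.18, adjusted p = 0.0562), Klf2 (1.76 ± 0.97), Klf4 (0.85 ± 0.43) and Myc (0.49 ± 0.29).

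**Figure D1:**
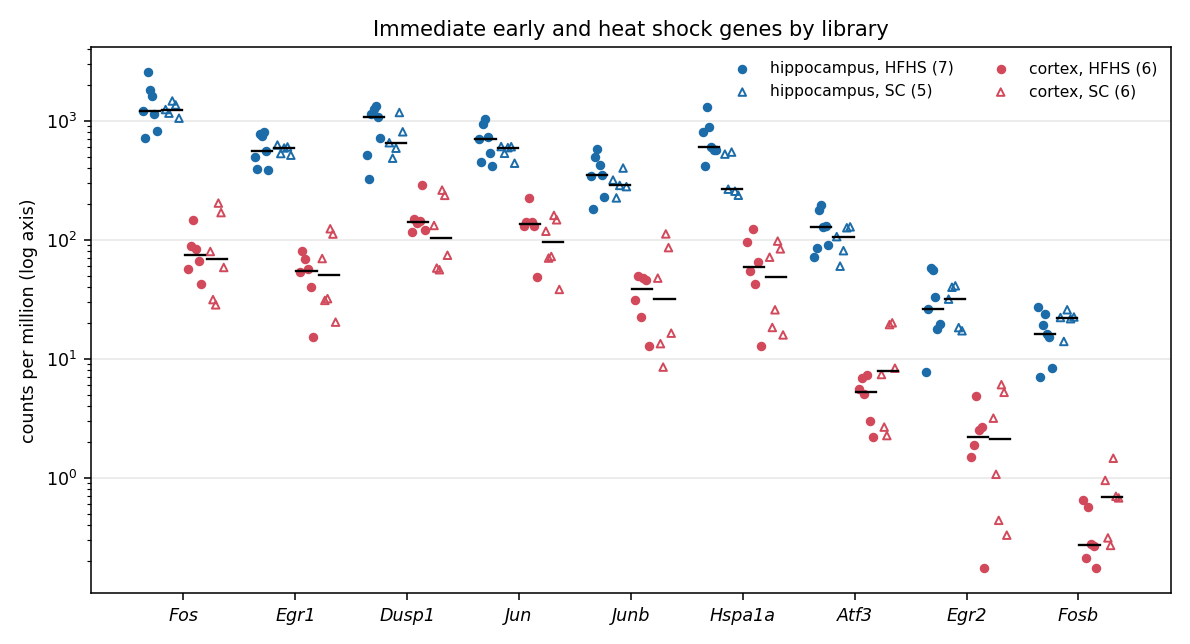
CPM of 9 genes on a log axis, 1 point per library, with circles for HFHS and triangles for SC, blue for hippocampus and red for cortex; the bars are group medians. In each of the 9 genes all 7 hippocampal HFHS libraries lie above all 6 cortical ones, as for Fos at 714 to 2565 against 42.2 to 148 CPM, and the SC libraries lie in the same order.

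Other measures can be set beside the immediate early genes. Within hippocampus, the library with the highest Fos level, number 3 with 2565 CPM, had the lowest summed astrocyte markers of its group (2612 CPM). Library 1 had nearly the same sum, 2632 CPM, with a Fos level of 1204 CPM, the group median. The library with the lowest Fos level, number 2 with 714 CPM, had 13521 CPM of summed astrocyte markers, the second highest after library 7 with 19285 CPM. In the 5 hypothalamic HFHS libraries of the study, which passed over the same kind of column as hippocampus, Fos lay between 842 and 1859 CPM and Fosb between 20.4 and 34.6 CPM. Both ranges lay above the cortical ones. The part of column, cell number, cell types or handling in the difference was not tested. The count of 18 ranged from 17 to 20 as each library was left out.

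Promoters of this list are shown for what they share, and the search covered members that did not pass, Klf2, Klf4 and Klf6 among them. The 250 bases before the RefSeq transcription start were searched on both strands for the cAMP response element (CRE, TGACGTCA), its core TGACG, which every CRE contains, the AP-1 site TGANTCA and the CArG box bound by serum response factor. The core was found in 10 of the 19 list members with a RefSeq window (52.63%), against 19.79% of 27025 genes. The full CRE was found in 2 (10.53%, against 1.77%) and the CArG box in 2 (10.53%, against 1.62%), and the AP-1 site in 0 (against 7.82%). For Fos (chr12:85473640-85473889, plus strand, GRCm38.p6, immediately upstream of the gene), Dusp1 (chr17:26508473-26508722, minus strand) and an Egr2 start (chr10:67537619-67537868, plus strand), capitals mark the CRE core, the full CRE in Dusp1 and the CArG box in Egr2. A match describes these letters only and is no measured binding.
Fos: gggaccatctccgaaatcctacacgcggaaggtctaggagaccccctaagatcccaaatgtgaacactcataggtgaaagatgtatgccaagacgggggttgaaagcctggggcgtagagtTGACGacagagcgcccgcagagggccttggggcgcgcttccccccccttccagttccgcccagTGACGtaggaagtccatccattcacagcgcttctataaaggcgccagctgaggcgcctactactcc
Dusp1: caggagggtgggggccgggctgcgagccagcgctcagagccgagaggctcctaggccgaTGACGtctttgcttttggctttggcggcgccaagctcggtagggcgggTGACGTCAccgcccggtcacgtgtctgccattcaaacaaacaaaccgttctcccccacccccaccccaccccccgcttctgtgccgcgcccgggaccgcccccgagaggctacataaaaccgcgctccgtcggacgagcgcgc
Egr2: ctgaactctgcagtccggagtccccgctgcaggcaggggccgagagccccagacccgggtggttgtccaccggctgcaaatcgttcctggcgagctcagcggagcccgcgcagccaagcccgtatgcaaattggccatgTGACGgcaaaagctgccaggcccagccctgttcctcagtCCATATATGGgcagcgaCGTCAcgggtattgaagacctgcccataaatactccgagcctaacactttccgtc
Egr2, a zinc finger factor of the same family as Egr1, had 7.79, 26.2 and 58.0 CPM in hippocampus and 0.174, 2.19 and 4.87 CPM in cortex.

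Genes of motile cilia and of ependymal cells were higher in hippocampus nearly throughout. Of 32 axoneme genes, 30 were higher and 0 lower (median 3.15), and 23 did not overlap between the groups. Of 12 ependymal markers, 11 were higher and 0 lower (median 3.25), and 10 did not overlap. Against the 9.89% of all genes that were higher, both shares of higher genes were large, and they held between 27 and 32 and between 11 and 12 as each library was left out. Of all genes, 5.44% did not overlap with hippocampus higher. Rsph1, a radial spoke protein of motile cilia, had 47.4, 156 and 253 CPM in hippocampus and 6.55, 8.62 and 21.2 CPM in cortex (3.55 ± 0.40, adjusted p = 0.000292). Ccdc153, a marker of ependymal cells, had 52.2, 164 and 378 CPM against 3.25, 10.3 and 25.7 CPM (3.61 ± 0.53). Spag17, a central pair protein of the axoneme, had 5.24, 22.9 and 41.9 CPM against 0.208, 1.02 and 3.35 CPM (3.94 ± 0.58).

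Hippocampal library 1 was the lowest of its group for these 3 genes and library 3 the highest, and cortical library 1 was the highest of the cortical group for all 3. Stoml3, a membrane protein found in ciliated cells, had 14.5, 61.4 and 126 CPM against 0.764, 3.40 and 6.80 CPM (4.17 ± 0.56). Cdh26, a cadherin, had 9.28, 21.6 and 44.2 CPM against 0.281, 0.716 and 3.25 CPM (4.10 ± 0.59). Foxj1, the master regulator of motile cilia, did not pass, with 12.6, 42.7 and 76.9 CPM against 0.399, 2.34 and 27.8 CPM (2.28 ± 0.79, adjusted p = 0.0540), but passed without cortical library 1 (3.33). Dnaic1, a dynein intermediate chain, had 13.9, 57.9 and 82.4 CPM against 14.8, 20.3 and 61.3 CPM, and Ropn1l was the other axoneme gene that did not pass.

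The X-box, the site of RFX factors that drive ciliary genes, was found in the 250 bases before the start of 7 of 36 ependymal and ciliary list members with a RefSeq window (19.44%), against 1.49% of 27025 genes, on either strand. It is shown in capitals for Spag16 (chr1:69826720-69826969, plus strand, GRCm38.p6), Cfap44 (chr16:44394549-44394798, plus strand) and Dnaic2 (chr11:114727169-114727418, plus strand), a protein of the central pair, a protein of the axoneme and a dynein intermediate chain.
Spag16: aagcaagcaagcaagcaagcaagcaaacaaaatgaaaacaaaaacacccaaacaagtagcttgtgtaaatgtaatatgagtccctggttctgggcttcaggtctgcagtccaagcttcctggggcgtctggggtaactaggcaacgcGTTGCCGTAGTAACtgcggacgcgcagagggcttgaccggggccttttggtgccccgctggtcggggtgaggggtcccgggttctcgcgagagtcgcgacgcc
Cfap44: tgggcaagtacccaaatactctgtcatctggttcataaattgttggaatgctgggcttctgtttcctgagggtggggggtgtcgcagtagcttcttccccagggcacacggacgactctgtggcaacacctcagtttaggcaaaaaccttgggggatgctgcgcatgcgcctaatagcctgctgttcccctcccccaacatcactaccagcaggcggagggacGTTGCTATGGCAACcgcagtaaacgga
Dnaic2: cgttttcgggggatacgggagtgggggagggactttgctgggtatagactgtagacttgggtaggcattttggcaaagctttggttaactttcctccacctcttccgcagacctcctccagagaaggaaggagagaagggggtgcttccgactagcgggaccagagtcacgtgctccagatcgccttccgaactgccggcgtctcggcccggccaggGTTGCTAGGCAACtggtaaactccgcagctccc
Spag16 had 7.81, 35.04 and 47.8 CPM in hippocampus and 0.139, 2.06 and 5.82 CPM in cortex (3.52 ± 0.67). Cfap44 had 8.65, 31.0 and 47.3 CPM against 0.174, 3.08 and 5.13 CPM (3.45 ± 0.68). Dnaic2 had 10.8, 34.3 and 47.3 CPM against 1.81, 6.81 and 14.99 CPM (1.97 ± 0.42), with hippocampal library 1 inside the cortical range.

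Choroid plexus markers were higher in 9 of 10 cases, with a median log2 fold change of 3.40, and with 6 to 10 as each library was left out. Ttr, the thyroid hormone carrier that choroid plexus secretes, had 2164, 7109 and 19483 CPM in hippocampus and 17.2, 223 and 1955 CPM in cortex (3.94 ± 0.97, adjusted p = 0.0112). The ranges did not overlap, but the lowest hippocampal library, number 2, lay close to the highest cortical one, number 1. Folr1, a folate receptor, had 53.5, 175 and 495 CPM against 1.06, 7.19 and 42.1 CPM (3.83 ± 0.79). Otx2, a homeobox factor of choroid plexus, had 16.8, 29.6 and 84.0 CPM against 0.122, 1.40 and 7.13 CPM (3.82 ± 0.71). Aqp1, a water channel, was the member that did not pass (1.57 ± 0.88).

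Epithelial keratins were among the largest changes. Krt8 had 14.4, 36.1 and 62.5 CPM against 0.0190, 0.879 and 4.81 CPM (4.58 ± 0.80), and Krt18, its usual filament partner, had 19.7, 64.0 and 159 CPM against 0.0570, 2.65 and 9.44 CPM (4.18 ± 0.86). Both were highest in hippocampal library 5 and cortical library 1, the libraries in which Ttr was highest. Krt15, a keratin of basal epithelial cells, had 9.03, 41.3 and 61.2 CPM against 0.304, 0.772 and 2.25 CPM (4.98 ± 0.58). Ces1d, a carboxylesterase, had a log2 fold change of 4.65 ± 0.97 with 2 cortical libraries at 0 reads. Lbp, which binds bacterial lipopolysaccharide, changed by 4.13 ± 0.83 and Serpinb1b, a protease inhibitor, by 4.10 ± 0.77. Ependymal and choroid plexus markers moved with all of these, and their part was not tested gene by gene.

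**Figure D2:**
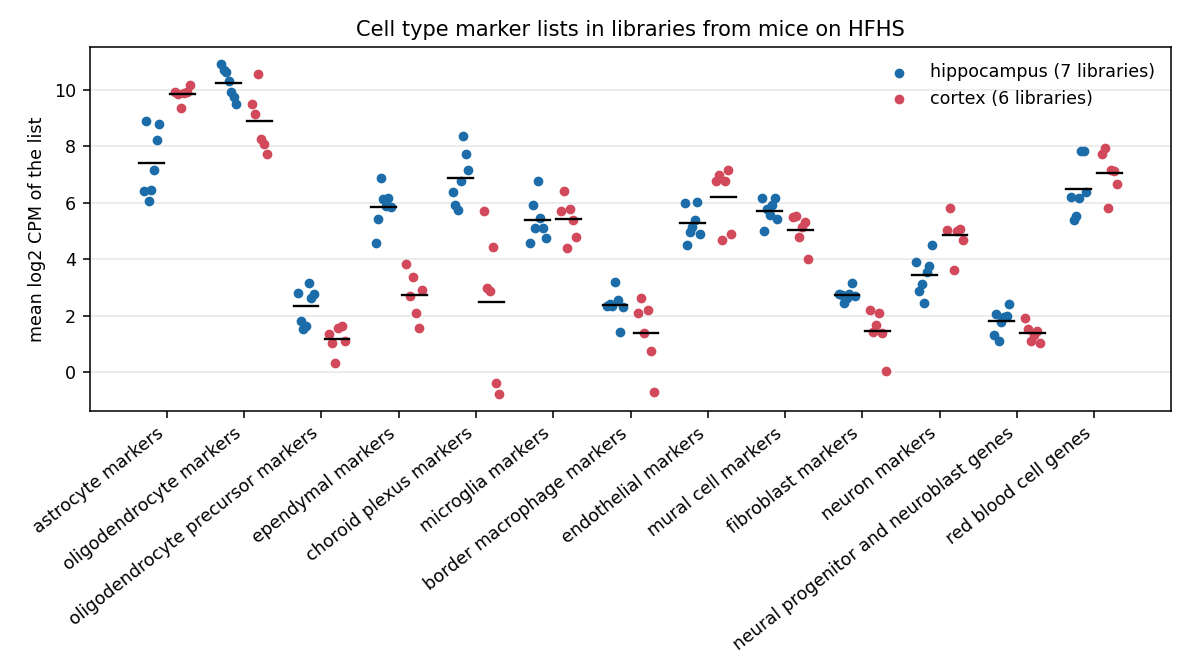
Mean log2 CPM of each marker list, 1 point per library, blue for 7 hippocampal and red for 6 cortical libraries from mice on HFHS; the bars are group means. Hippocampal and cortical points separate for astrocyte markers (6.06 to 8.89 against 9.35 to 10.18) and ependymal markers (4.58 to 6.89 against 1.57 to 3.84). They also separate for fibroblast markers and, by a very narrow margin, for choroid plexus markers (5.73 to 8.38 against -0.77 to 5.71). They overlap for the oligodendrocyte, microglia, vascular, neuron, progenitor and red blood cell lists.

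Astrocyte genes were lower in the hippocampal libraries relative to all RNA. Of 18 astrocyte markers, 16 were lower and 0 higher, against 9.56% of all genes. The median log2 fold change was -2.12, and 14 to 18 were lower as each library was left out. Fewer astrocytes among the bound cells and less of their RNA per cell cannot be told apart in these bulk libraries. Slc1a3, the glutamate transporter GLAST, had 277, 809 and 2957 CPM in hippocampus and 3878, 6423 and 8566 CPM in cortex (-2.42 ± 0.51, adjusted p = 0.00510). Slc1a2, the glutamate transporter GLT-1, had 189, 672 and 2125 CPM against 2137, 3589 and 5343 CPM (-2.33 ± 0.52), and the ranges of both transporters did not overlap. Aldoc, the aldolase of astrocytes, had 613, 1893 and 7489 CPM against 6951, 13023 and 21903 CPM (-2.42 ± 0.55), with only hippocampal library 7 inside the cortical range.

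Atp1b2, which encodes the antigen used in the sort, had 53.2, 139 and 443 CPM in hippocampus and 388, 849 and 1592 CPM in cortex (-2.19 ± 0.49, adjusted p = 0.00693). Aqp4, the water channel of endfeet, had 43.3, 131 and 364 CPM against 284, 449 and 601 CPM (-1.36 ± 0.41, adjusted p = 0.0301), and did not pass without hippocampal library 3, 4 or 5 or cortical library 2, 4 or 6. Gfap, the filament protein of astrocytes, had 95.8, 240 and 726 CPM against 144, 392 and 440 CPM, a log2 fold change of 0.01 ± 0.43 (adjusted p = 0.991). Its hippocampal range spanned the whole cortical range. Sox9 (-0.80 ± 0.27, adjusted p = 0.0501) and Mlc1 (-0.99 ± 0.34, adjusted p = 0.0552) were the markers that did not pass.

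Of 45 further genes known from astrocytes (46 listed), 36 were lower, against 9.56% of all genes, and 0 higher, with a median of -1.75. Of the 45, 16 had every hippocampal library under every cortical one, against 1.77% of all genes. The levels of the 45 were then set relative to the 18 markers, by scaling each library to the geometric mean of the marker counts. This moved the median log2 fold change of all genes to 2.75 and made 90.5% of all genes higher and 0.0702% lower, 90.6% together, so that only the spread of genes around this shift can be read. On that scale 11 of the 45 were higher and 2 lower.

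Chrdl1, a secreted factor by which astrocytes mature synapses, was lower on both scales. It had 1.55, 4.99 and 23.8 CPM in hippocampus and 108, 151 and 215 CPM in cortex, a log2 fold change of -4.04 ± 0.55 (adjusted p = 0.000482) and of -2.15 ± 0.57 relative to the markers (adjusted p = 0.000323). Crym, a thyroid hormone binding protein, was lower on both scales too, with 2.49, 5.18 and 17.2 CPM against 59.7, 71.7 and 132 CPM (-3.65 ± 0.49, and -1.33 ± 0.57 relative to the markers). Every hippocampal library lay under every cortical library for both. Igfbp2, a binding protein of insulin-like growth factors, did not pass on the scale of all RNA (0.20 ± 0.44) and was 2.84 ± 0.63 relative to the markers. The other genes higher relative to the markers were Thbs4, Id3, Gfap (2.09 ± 0.60), Fxyd1, the potassium channel Kcnj10 (1.96 ± 0.59), Paqr6, Hepacam, Unc13c, Phkg1 and Cbs. All of these lay under the shift of all genes except Igfbp2. Igfbp2 took the same order as the choroid plexus gene Ttr over the 7 hippocampal libraries, from 102 and 2164 CPM in library 2 to 695 and 19483 CPM in library 5. In hippocampal SC library 3 the pair was also lowest of its group, at 32.2 and 45.8 CPM. The cortical HFHS libraries did not share this order. Cortical library 6 had the highest Igfbp2 of its group, 470 CPM, with 19.0 CPM of Ttr. Cortical library 1, with the highest Ttr of 1955 CPM, had 241 CPM of Igfbp2. Choroid plexus, ependymal and oligodendrocyte markers had higher medians in the same comparison, and reads from those cells for these genes were not measured apart.

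**Figure D3:**
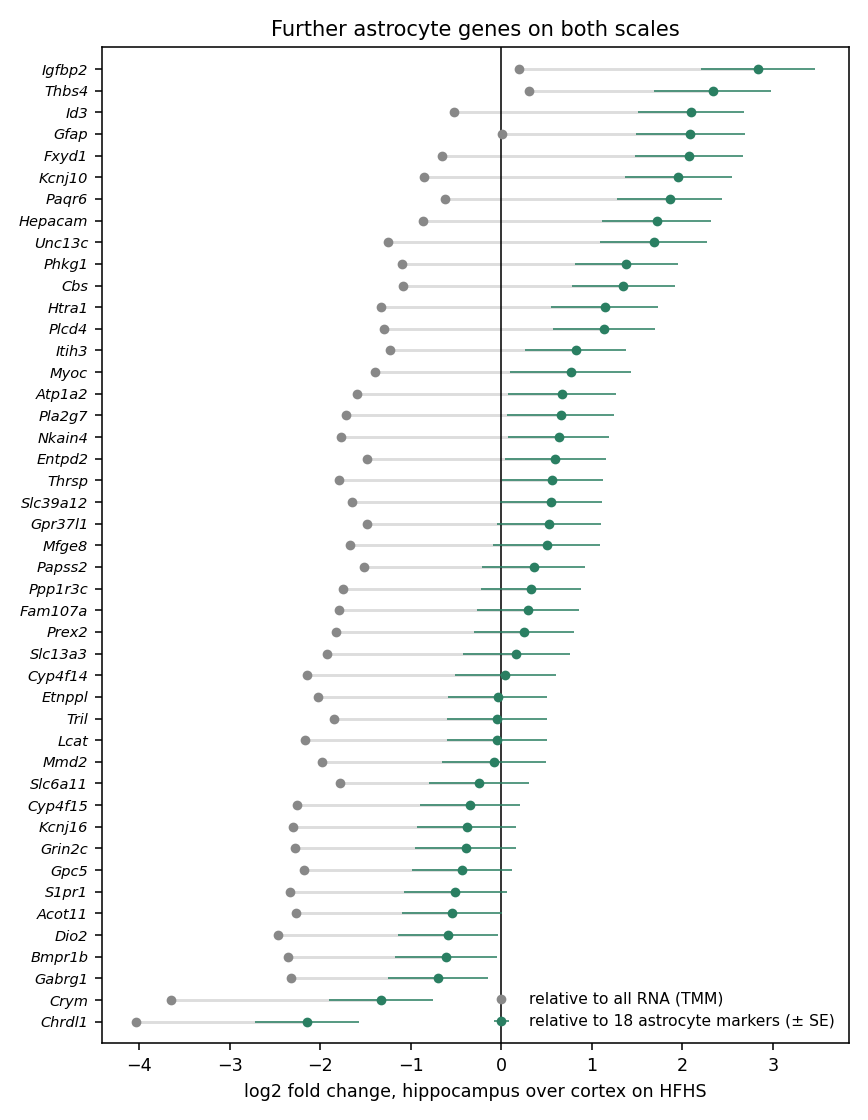
Log2 fold change of the 45 further astrocyte genes, with grey points relative to all RNA and green points with SE relative to the 18 astrocyte markers. Chrdl1 and Crym lie left of 0 on both scales (-4.04 and -2.15, and -3.65 and -1.33), and Igfbp2 lies farthest to the right relative to the markers, at 2.84.

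Other genes with the largest decreases in hippocampus were Pdzph1, a PDZ domain protein, with 0.446, 2.17 and 8.36 CPM against 23.0, 37.98 and 111 CPM (-4.04 ± 0.68), and Rpe65, a retinoid isomerase, with 0.0558, 1.29 and 6.87 CPM against 12.3, 18.8 and 35.2 CPM (-3.43 ± 0.71). Luzp2, a leucine zipper protein of glia, had 31.5, 107 and 466 CPM against 1001, 1323 and 1948 CPM (-2.98 ± 0.56). Shisa9, an AMPA receptor partner, Rims3 and Dlgap2, synaptic scaffold genes, Jph3, a junctophilin of neurons, and Tmem151b fell by 2.93 to 3.23 on the log2 scale. Ltbp1, which holds latent TGF-beta, had -3.10 ± 0.53 and Tfcp2l1, a transcription factor, -2.94 ± 0.50. Neuron markers were mostly lower as well, but Shisa9 did not follow them over the hippocampal libraries. In library 2 Shisa9 had 5.44 CPM, within 0.446 to 5.52 CPM over the group. Summed neuron markers of that library were 153 CPM, under the group median of 253 CPM. Its summed astrocyte markers were 13521 CPM, above the group median of 5477 CPM. The cells these genes came from were not tested. Of 12 neuron markers, 8 were lower and 0 higher (median -1.40). Relative to the astrocyte markers 6 were higher, against 90.5% of all genes. The 8 were 5 without hippocampal library 3 or 4 or cortical library 2, 4 or 5. Camk2a, the kinase of excitatory synapses, had 14.5, 29.0 and 180 CPM against 121, 287 and 582 CPM (-2.48 ± 0.56), and Nefl, a neurofilament, 13.2, 22.3 and 64.2 CPM against 56.6, 159 and 332 CPM (-2.56 ± 0.43).

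Transmitter handling genes were mostly lower, and some members were higher. All directions in the lists below are relative to all RNA, and the number higher relative to the astrocyte markers is to be read against 90.5% of all genes. Of 15 genes of glutamate uptake and metabolism, 8 were lower and 1 higher (median -0.93), with 9 higher relative to the astrocyte markers. Without cortical library 6, 11 were lower. Glul, glutamine synthetase, had 623, 782 and 1274 CPM against 1766, 2096 and 3991 CPM (-1.61 ± 0.29, adjusted p = 0.00215), and Slc7a11, the cystine-glutamate exchanger, had 7.76, 16.5 and 48.9 CPM against 70.2, 85.7 and 154 CPM (-2.09 ± 0.39). The ranges of both did not overlap. Got2, a mitochondrial transaminase found in many cell types, was the higher member, with 123, 154 and 175 CPM against 24.2, 74.0 and 108 CPM (0.95 ± 0.25).

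Of 12 genes of GABA uptake, breakdown and receptors, 10 were lower and 1 higher (median -1.71), with 3 higher relative to the astrocyte markers. Gabbr2, a subunit of the GABA-B receptor, had 1.88, 5.91 and 12.7 CPM in hippocampus and 30.0, 40.3 and 42.6 CPM in cortex (-2.67 ± 0.39, adjusted p = 0.000604), with no overlap. Abat, which breaks GABA down, had 70.1, 165 and 440 CPM against 320, 638 and 1030 CPM (-1.97 ± 0.40). Slc6a11, the transporter GAT-3, did not pass, with 7.59, 27.1 and 333 CPM against 86.6, 244 and 432 CPM (-1.78 ± 0.73, adjusted p = 0.101), and hippocampal library 2 held the 333 CPM. Slc6a13, the transporter GAT-2 of meninges and vessels, was higher, with 9.24, 28.7 and 42.2 CPM against 1.82, 2.95 and 5.96 CPM (2.96 ± 0.35). It also belongs to the fibroblast markers, of which 3 of 8 were higher, among them Dcn, a matrix proteoglycan (1.98 ± 0.28).

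Of 13 connexins, potassium channels and sodium pump genes, 8 were lower and 1 higher (median -1.23), with 6 higher relative to the astrocyte markers. Gja1, connexin 43, had 106, 229 and 1066 CPM against 942, 1776 and 2124 CPM (-2.04 ± 0.48). Slc12a2, the chloride importer NKCC1, had 160, 229 and 684 CPM against 27.8, 51.6 and 169 CPM (2.00 ± 0.45). Of 17 synapse-shaping factors, 9 were lower and 0 higher (median -0.79), Chrdl1 included, with 9 higher relative to the astrocyte markers. Of 12 endfoot genes, 5 were lower and 0 higher (median -0.76), with 10 higher relative to the astrocyte markers. The 5 were 2 without hippocampal library 3, 4 or 5 or cortical library 2 or 4 and 3 without cortical library 1 or 5.

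Genes of cholesterol synthesis were mostly lower relative to all RNA. Of 22 members, 17 were lower and 0 higher, against 9.56% of all genes, with a median of -0.97, while 19 were higher relative to the astrocyte markers, and 15 to 18 were lower as each library was left out. Msmo1, a sterol oxidase, had 158, 217 and 375 CPM against 440, 582 and 941 CPM (-1.56 ± 0.27), with no overlap. Sqle, squalene epoxidase, had 74.2, 128 and 156 CPM against 155, 197 and 315 CPM (-1.02 ± 0.19). Ebp, a sterol isomerase, had 43.4, 53.4 and 72.4 CPM against 19.0, 30.3 and 51.7 CPM and did not pass (0.63 ± 0.26, adjusted p = 0.1002). Scd1, the fatty acid desaturase, was lower (-1.48 ± 0.28), and Elovl7, an elongase, was higher (1.52 ± 0.32). Both belong to a list of 14 genes of myelin lipid synthesis and transport, of which 4 were higher and 3 lower. Without cortical library 3, 8 were higher, and without any other single library except hippocampal library 7, 1 or 2 were.

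Of 14 genes of lipoproteins and cholesterol export, 3 were higher and 6 lower (median -0.35), with 5 higher without cortical library 3. Apoe, the main lipid carrier of brain, had 3250, 6188 and 12702 CPM against 8318, 11639 and 32661 CPM (-1.37 ± 0.40, adjusted p = 0.0264), and cortical library 6 held the highest value. The call was lost without hippocampal library 1, 3, 4 or 5, and without cortical library 6 the log2 fold change was -0.81. Pltp, which transfers phospholipid between lipoproteins, was higher, with 385, 660 and 1275 CPM against 74.8, 263 and 354 CPM (1.57 ± 0.36).

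Of 24 genes of fatty acid oxidation, 9 were lower and 1 higher (median -0.83), with 21 higher relative to the astrocyte markers. Acsl3, an acyl-CoA synthetase, had 168, 238 and 555 CPM against 706, 983 and 1183 CPM (-1.69 ± 0.30), and Ppara, a fatty acid receptor, 2.53, 4.79 and 8.27 CPM against 6.86, 12.7 and 14.9 CPM (-1.36 ± 0.29). Of 25 glycolysis and lactate shuttle genes, 10 were lower and 0 higher (median -0.62), with 20 higher relative to the astrocyte markers. The 10 were 5 or 6 without hippocampal library 1, 3, 4 or 6 or cortical library 1, 2, 4 or 5. Of 13 mitochondrially encoded genes, 10 were lower and 0 higher (median -0.93), with all 13 higher relative to the astrocyte markers. The 10 were 5 or 6 without hippocampal library 4 or 6 or cortical library 2 or 4, and 12 without cortical library 3. mt-Co1, a subunit of cytochrome oxidase, had 2987, 5007 and 5620 CPM against 4890, 10069 and 14776 CPM (-1.27 ± 0.29). Astrocyte markers were lower in the same libraries, and their part in these metabolic differences was not tested.

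**Figure D4:**
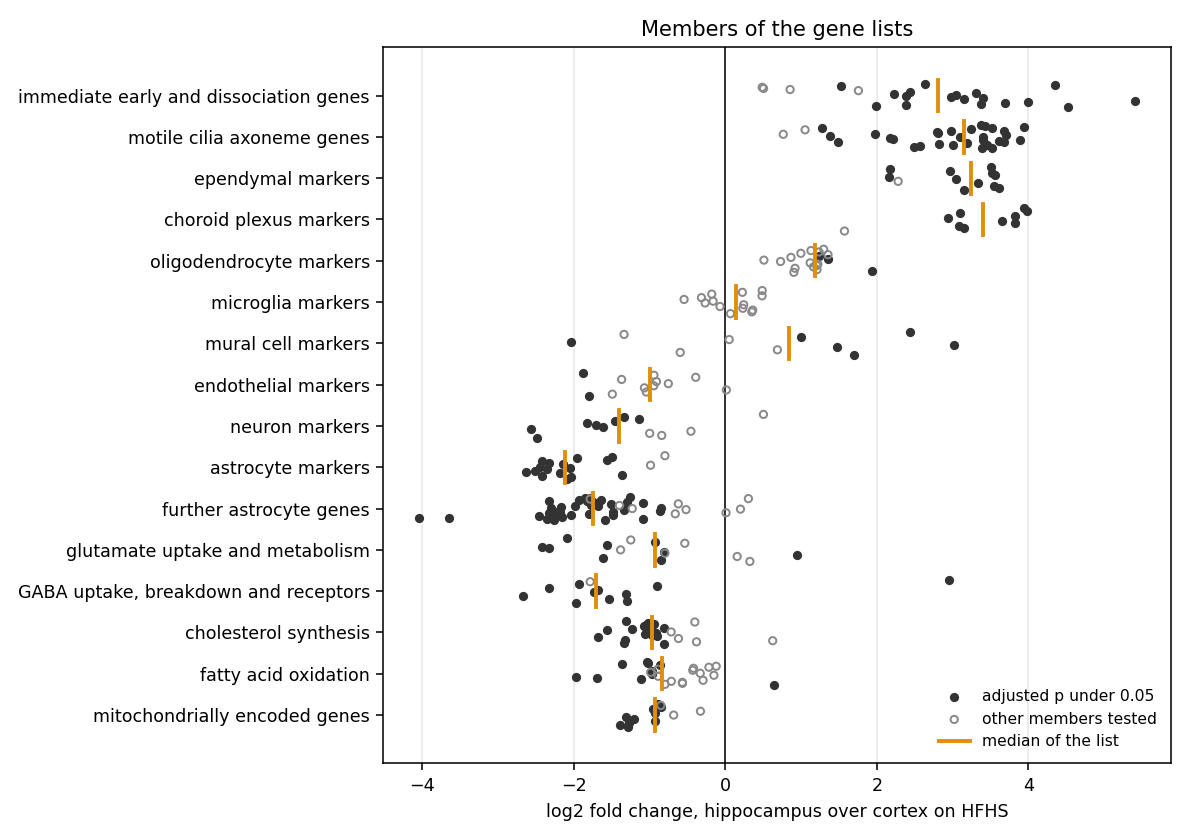
Log2 fold change of each tested member of 16 lists, 1 point per gene, filled where the adjusted p was under 0.05; orange bars are list medians. The medians run from 3.40 for choroid plexus markers and 3.25 for ependymal markers to -2.12 for astrocyte markers, and microglia markers lie around 0 at 0.15 with no filled point.

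The calls for other glia and for vessels depended more on the libraries and the fit. Oligodendrocyte markers had a median of 1.18, with 3 of 18 higher, 15 without cortical library 3, and 1 without hippocampal library 1, 3, 4 or 5 or any other single cortical library. DESeq2 called 11 of them higher, the fit of all 6 groups 12 and voom 15, and on SC 15 of 18 were higher. Cldn11, a tight junction protein of myelin, had 40.1, 61.8 and 173 CPM in hippocampus and 6.05, 11.8 and 51.5 CPM in cortex (1.93 ± 0.52). Of 9 precursor markers, 4 were higher and 0 lower (median 1.43), with 2 without cortical library 2. Cspg4, which encodes NG2, had 16.6, 22.2 and 27.0 CPM against 2.54, 8.52 and 12.2 CPM (1.43 ± 0.29), with no overlap. Of 14 microglia markers, 0 passed in either direction (median 0.15, from -0.26 to 0.30 as each library was left out).

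Mural cell markers split. Kcnj8, a potassium channel of pericytes, had 51.8, 129 and 167 CPM in hippocampus and 5.09, 12.3 and 29.4 CPM in cortex (3.02 ± 0.40, adjusted p = 0.000432). Vtn, vitronectin, which pericytes express, had 424, 1140 and 1225 CPM against 69.7, 171 and 247 CPM (2.44 ± 0.31), and neither range overlapped. Myh11, the myosin of smooth muscle, was lower, with 3.98, 10.9 and 31.3 CPM against 7.48, 65.2 and 75.6 CPM (-2.04 ± 0.49). In all, 5 of 10 mural markers were higher and 1 lower. Of 12 endothelial markers, 2 were lower and 0 higher (median -0.99), against 9.56% of all genes that were lower. The 2 were 9 without cortical library 3, 8 without cortical library 6, 4 without hippocampal library 6 and 11 without both cortical libraries. Tek, the angiopoietin receptor, had 9.41, 23.3 and 45.4 CPM against 8.54, 102 and 129 CPM (-1.88 ± 0.51).

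Some regional transcription factors differed between the regions. Emx1, a homeobox gene of the dorsal telencephalon, had 1.28, 3.08 and 4.85 CPM in hippocampus and 0.292, 0.501 and 0.904 CPM in cortex (2.33 ± 0.40, adjusted p = 0.00144). Dmrt3, a doublesex-related factor of the medial pallium, had 2.24, 4.88 and 14.8 CPM against 0 reads in 5 cortical libraries and 0.963 CPM in the other. Neither gene overlapped between the groups. Emx2, its homeobox relative, was lower, with 3.91, 4.79 and 17.9 CPM against 15.2, 26.9 and 37.9 CPM (-1.88 ± 0.38), and Nr2e1, a nuclear receptor of neural stem cells and astrocytes, had 2.80, 6.33 and 30.9 CPM against 55.4, 67.0 and 84.8 CPM (-2.42 ± 0.54). Relative to the astrocyte markers, Emx2 (0.43 ± 0.59) and Nr2e1 (-0.63 ± 0.56) did not pass. Of 16 telencephalic factors, 2 were higher and 5 lower, against 9.89% and 9.56% of all genes. The 5 were 3 without hippocampal library 3 or 4 or cortical library 1, 2, 4 or 5. Of 8 diencephalic and midbrain factors tested of 16, 3 were higher and 1 lower (median 0.72). The lower one was Tcf7l2, a Wnt effector, with 14.1, 22.7 and 31.2 CPM against 28.8, 52.7 and 81.3 CPM (-1.31 ± 0.22). Irx3, an Iroquois factor of posterior brain regions, was low in both groups, with 1.15, 1.83 and 3.37 CPM against 0.0868, 0.175 and 0.637 CPM (2.80 ± 0.50); the hypothalamic HFHS libraries had 7.65 to 15.9 CPM.

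Of 28 genes of Notch, Wnt, hedgehog and BMP signalling, 13 were lower and 1 higher (median -0.67), with 20 higher relative to the astrocyte markers, and 10 to 14 were lower as each library was left out. Gli3, a mediator of hedgehog signals, had 2.32, 3.77 and 10.4 CPM against 13.6, 21.8 and 42.4 CPM (-2.31 ± 0.37), and Fzd2, a Wnt receptor, 2.92, 3.37 and 12.2 CPM against 13.6, 24.5 and 65.5 CPM (-2.38 ± 0.46). Hes5, a Notch target, had 5.00, 18.1 and 109 CPM against 93.6, 129 and 173 CPM (-2.31 ± 0.55), with hippocampal library 7 alone inside the cortical range. Bmp4, a ligand, was the higher member (2.64 ± 0.55). Of 20 progenitor and neuroblast genes, 18 were tested, 1 was higher and 3 lower, with 3 higher without cortical library 3. Over all genes 9.89% were higher and 9.56% lower, and no result about the list is drawn from these counts. The higher one, Cd24a, is also expressed by ependymal cells (3.24 ± 0.49).

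Immune and reactive genes moved for a few members each. Il1b, the cytokine interleukin 1 beta, had 7.90, 14.5 and 31.4 CPM in hippocampus and 0, 0.461 and 0.970 CPM in cortex (4.97 ± 0.64, adjusted p = 0.000418), with no overlap. No microglia marker passed, and of 6 border macrophage markers 1 was higher and 0 lower (median 0.72), against 9.89% of all genes that were higher. That marker was Pf4, a chemokine, with 2.43, 6.15 and 9.11 CPM against 1.18, 1.85 and 3.12 CPM (1.36 ± 0.36). The part of microglia and border macrophages in the immune genes was not tested. Of 19 genes of interferon response and antigen presentation, 3 were higher and 0 lower (median -0.08), all of the class II pathway, a count near the 9.89% of all genes that were higher and thus no result about the list. Cd74, the invariant chain, had 75.4, 168 and 263 CPM against 11.8, 31.3 and 58.4 CPM (2.14 ± 0.37), and H2-Aa, a class II chain, 13.8, 41.7 and 75.0 CPM against 2.33, 4.74 and 13.1 CPM (2.56 ± 0.49). Of 26 reactive astrocyte genes tested of 29, 7 were higher, against 9.89% of all genes, and 0 lower (median 0.35). Without hippocampal library 3 or cortical library 4, 4 were higher. On SC, 4 of 27 tested were higher and 2 lower (median -0.09). Gfap, described above, belongs to this list and did not pass. C3, the complement component, had 5.61, 17.03 and 28.5 CPM against 0, 0.977 and 2.41 CPM (3.73 ± 0.78). S1pr3, a sphingosine phosphate receptor, had 90.5, 117 and 169 CPM against 0.990, 32.2 and 35.4 CPM (2.11 ± 0.48).

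Hormone and clock genes were examined because the diet acts on metabolism. Of 16 genes of insulin, IGF and leptin signalling, 2 were higher and 2 lower (median 0.06), close to the 9.89% and 9.56% of all genes, so that the list as a whole did not stand out. Igf2, a growth factor secreted by choroid plexus and meninges, had 21.0, 73.9 and 119 CPM in hippocampus and 3.50, 4.37 and 17.4 CPM in cortex (3.22 ± 0.48), with no overlap. Lepr, the leptin receptor, had 5.15, 8.37 and 27.1 CPM against 0.399, 2.21 and 5.62 CPM (2.24 ± 0.57). Choroid plexus markers moved with both, and this was not tested. Akt2, an insulin-regulated kinase, had 65.5, 122 and 194 CPM against 177, 396 and 501 CPM (-1.66 ± 0.29). Insr, the insulin receptor, had 12.7, 18.5 and 27.8 CPM against 10.9, 14.6 and 25.0 CPM and did not pass (0.18 ± 0.21).

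Of 17 glucocorticoid receptors and targets, 1 was higher and 4 lower, against 9.89% and 9.56% of all genes. Only 2 were lower without hippocampal library 1, 3, 4 or 5 or cortical library 1, 2 or 5, near the share of all genes. Sgk1, a kinase induced by glucocorticoids and stress, had 414, 640 and 1457 CPM against 56.6, 192 and 320 CPM (1.73 ± 0.43), and Tsc22d3, another target, 183, 305 and 375 CPM against 359, 553 and 826 CPM (-1.15 ± 0.24). The pair thus differed in opposite directions, while Nr3c1, the receptor, did not pass (-0.38 ± 0.17, adjusted p = 0.123). Of 19 clock genes, 7 were lower and 1 higher (median -0.80), with 15 higher relative to the astrocyte markers. Without cortical library 6, 10 were lower. Rorb, a nuclear receptor, had 5.23, 14.4 and 57.3 CPM against 80.2, 139 and 273 CPM (-2.86 ± 0.54), and Dbp, an output gene of the clock, 42.2, 49.7 and 90.4 CPM against 88.8, 118 and 184 CPM (-1.33 ± 0.26). Nfil3, a repressor of the same promoter element as Dbp, was higher, with 7.13, 16.6 and 21.7 CPM against 1.88, 3.39 and 5.72 CPM (2.10 ± 0.31). The hour of killing is not given in the labels.

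The same regions on SC, in libraries that the comparison above does not use, differed in the same direction for most of the genes called on HFHS. Region and column cannot be told apart on SC either, so this agreement does not separate them. On SC, 5006 of 18560 genes were called (27%), 2571 higher (13.9%) and 2435 lower (13.1%). Of the 1831 genes higher on HFHS, 1787 were tested on SC, 1734 had the same sign and 1093 were also called higher, which is 59.7% of the HFHS and 42.5% of the SC calls. Of the 1770 lower genes, 1768 were tested, 1745 had the same sign and 1283 were also called lower, which is 72.5% and 52.7%. No gene was called in opposite directions. Fosb had 4.62 ± 0.42 on SC, Rsph1 3.27 ± 0.38, Chrdl1 -3.94 ± 0.68 and Slc1a3 -2.29 ± 0.55. All 4 had the same sign and passed on both diets.

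The change of the region difference with diet was tested in 1 fit of 24 libraries. By edgeR, 0 of 20449 genes passed (0%), 1393 had an unadjusted p under 0.05, and DESeq2 called 2 genes. The 2 were Sele and Gm26712, with fitted differences as extreme as 20.4 and 20.6 on the log2 scale. The 1393 became 3501 without cortical HFHS library 6 and 2200 without hippocampal HFHS library 2. The smallest p belonged to Gem, a small GTP-binding protein induced by signals, with 20.9 ± 8.36 (SD, n = 7) CPM in hippocampus and 7.80 ± 1.88 (n = 6) in cortex on HFHS, and 9.14 ± 1.61 (n = 5) and 11.6 ± 2.90 (n = 6) on SC. The region difference was higher on HFHS by 1.76 ± 0.41 on the log2 scale (adjusted p = 0.713). Wrn, a DNA helicase, had the opposite sign (-1.46 ± 0.36, adjusted p = 0.713), and Rn7s1, Cxcr5 and Gm38335 completed the 5 smallest. Some genes passed on 1 diet only without a difference that passed. Il1b was 4.97 ± 0.64 on HFHS and 1.74 ± 0.62 on SC, a difference of 3.13 ± 0.88 (adjusted p = 0.713). Lhx2, a forebrain LIM homeobox factor, was -1.08 ± 0.58 on HFHS and -3.03 ± 0.25 on SC, a difference of 1.90 ± 0.72 (adjusted p = 0.713).

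**Figure D5:**
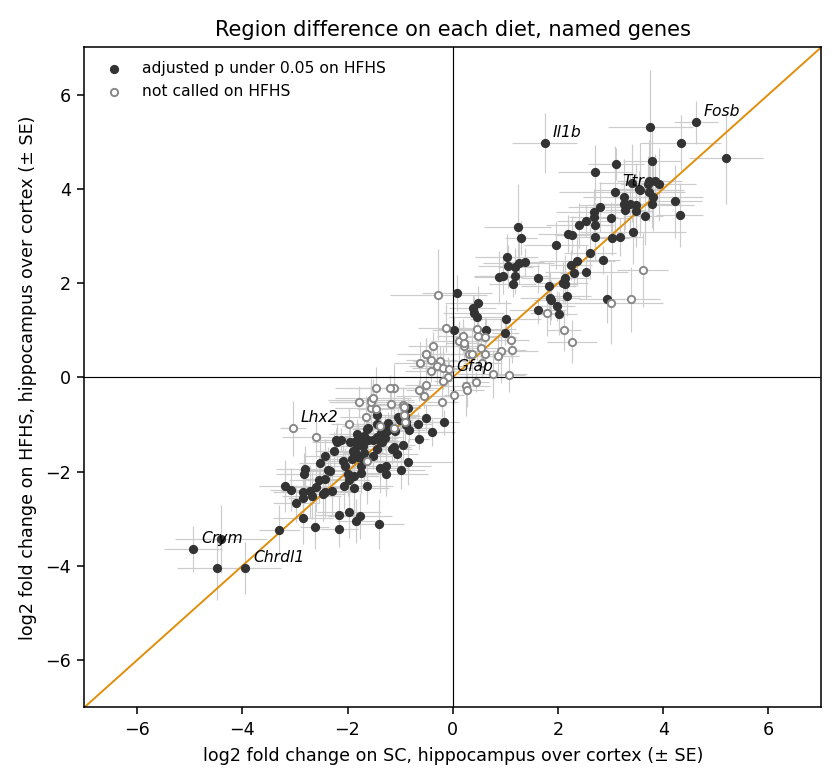
Log2 fold change of hippocampus over cortex on SC (horizontal) and on HFHS (vertical), with SE, for the 250 named genes tested on both diets; filled points passed on HFHS and the orange line marks equal values. Fosb and Chrdl1 lie near the line (4.62 and 5.41, and -3.94 and -4.04), and Il1b (1.74 and 4.97) lies above it.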

How the data were processed

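RNA-seq libraries of ACSA2-bound cells were used from the hippocampus and cortex. The authors quantified reads with Salmon, checked them with FastQC and used the build GRCm38, per the submitters' processing notes; tool versions were not given in the sources used here. The deposited tables give an estimated count and a TPM per transcript. Of 140948 transcripts, 139852 were matched to genes by GENCODE identifiers without their versions; the 1096 unmatched ones held 0.234 to 0.315% of reads in the 13 HFHS libraries and are not part of the fits. Summing over transcripts gave estimated counts for 54119 genes, which were rounded to whole numbers, and deposited TPM values were summed only to compare marker lists.

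Genes were filtered with filterByExpr and tested with edgeR 4.0.16 (TMM, quasi-likelihood, robust, R 4.3.3) on the 13 HFHS libraries, the 11 SC libraries, or all 24 for the diet interaction, with Benjamini-Hochberg adjustment and a threshold of 0.05. A second scaling used the 18 astrocyte markers. Alternatives were DESeq2 1.42.0, limma 3.58.1 (voom with quality weights), other filters, scalings and thresholds, and leaving out each library. The script was tested on simulated data. Replicates are labelled as separate samples, and p-values measure the spread between these pools only. Depth in the 13 libraries was 47578560 to 65982495 reads, so precision rests mostly on the spread between libraries.

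Named genes were, of called genes with an established symbol and a mean log2 CPM from 3 upwards, the 12 with the largest and the 12 with the smallest log2 fold change, up to 4 members of each list by smallest p and 2 by highest CPM, Atp1b2, Gfap, Aqp4 and the 5 smallest p of the interaction; other list members are given by value. Libraries were grouped by their labels, but the choice to describe this comparison, and the gene lists, were made with earlier results of these data known. Promoter windows are from RefSeq (GRCm38.p6), 250 bases before each start; 19 of 22 immediate early and 36 of 44 ependymal and ciliary genes matched. Some results are not reported here.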

Additional observations from a re-analysis of the deposited data

Results flagged for a closer look

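In groups of 6 or 7 libraries, a value was singled out where 1 library lay far from all others of its group. For independent and normally distributed values, chance alone does this for about 1 in 20 groups. The groups here share libraries and genes, so their number cannot be set against that rate. In all, 32 of 320 groups of values were singled out. Cortical library 6 accounted for 14 of them, hippocampal library 1 for 6, cortical library 3 for 5, hippocampal library 2 for 4 and cortical library 1 for 3.

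Cortical library 6 had the shortest mean transcript length of its group, 2179 bases. It was the lowest of its group in the mean log2 CPM of fibroblast markers (0.0520) and of immediate early genes (3.12), and in Socs3 (0.0521 CPM), Ltbp1 (16.9 CPM), S1pr3 (0.990 CPM) and Il1b (0 CPM). It was the highest in Glul (3991 CPM), Apoe (32661 CPM), Msmo1 (941 CPM), Crym (132 CPM), Pdzph1 (111 CPM), Fxyd1 (465 CPM) and Dnaic1 (61.3 CPM). The part of RNA quality in these values was not tested.

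Cortical library 3 was the lowest of its group in the mean log2 CPM of further astrocyte genes (7.16) and in Mlc1 (744 CPM), Unc13c (15.3 CPM), Acsl3 (706 CPM) and Klf4 (2.06 CPM). Cortical library 1 was the highest in the mean log2 CPM of Notch, Wnt, hedgehog and BMP genes (5.31), in Slc6a13 (5.96 CPM) and in Dmrt3 (0.963 CPM), the last against 0 reads in the 5 others.

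Hippocampal library 1 was the lowest of its group in the ciliary genes Dnaic1 (13.9 CPM), Spag16 (7.81 CPM), Cfap44 (8.65 CPM) and Dnaic2 (10.8 CPM) and in Sox9 (58.6 CPM), and the highest in Dlgap2 (4.82 CPM). Hippocampal library 2 had the longest mean transcript length of its group, 2966 bases, and was the lowest in Klf4 (2.13 CPM), Dcn (10.9 CPM) and Nfil3 (7.13 CPM).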

How the results depend on the processing

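The counts of genes higher and lower in hippocampus on HFHS, 1831 and 1770, became 3468 and 3268 with limma voom and quality weights, and 582 and 160 when tested against a fold of 2, which is a stricter hypothesis. With all 6 groups in the fit 2895 genes were higher. As each library was left out, the counts ran from 1386 to 2328 and from 1273 to 2205, and on SC from 1945 to 3005 and from 1727 to 2994. The interaction called 2 genes with DESeq2 and between 0 and 1 as each library was left out; Gem was the 1, without hippocampal HFHS library 1. Relative to the astrocyte markers, 121 genes were lower with a weak filter, against 13, and between 9 and 21 as each library was left out. The cause of these shifts was not tested. Of the 122 genes named in the text or plotted as immediate early genes, not the 250 in the plot of both diets, 101 were called, and 94 of them kept the call in every alternative except the fold of 2; the exceptions were Aqp4, Apoe, Hepacam, Kcnj10, Myh11, Tek and Pf4.

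Some genes that did not pass changed sign. Gfap was 0.00 with DESeq2 (-0.00047) and with RLE scaling (-0.00046), -0.0388 with a weak filter, -0.0363 with counts rescaled from TPM, -0.55 with voom and -0.23 without cortical libraries 3 and 6, and ran from -0.19 to 0.19 as each library was left out. Dnaic1, at 0.76 ± 0.43 (adjusted p = 0.228 by edgeR), was -0.58 with counts rescaled from TPM, and Thbs4 was -0.0818 with voom. As each library was left out, Igfbp2 ran from -0.13 to 0.64 and Fxyd1 from -0.95 to 0.11.

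Replicate numbers are shared between the groups, but the labels do not say that equal numbers share animals, so the numbers were not taken as pairs. Same-numbered libraries correlated at 0.002 to 0.148 in their deviations, and 1 of 6 matched its own number best. Such correlations cannot show whether animals were shared. The replicate block leaves out hippocampal HFHS library 7, which has no cortical partner, and for the interaction also cortical SC library 6. With the block, 1579 genes were higher and 1596 lower, and 2688 of the 3601 calls were shared. Without library 7 and with no block, 1546 were higher and 1696 lower. With the block, 16 of 18 oligodendrocyte markers were higher, against 3 without library 7 and no block. With the block, 841 genes had an unadjusted interaction p under 0.05. Gfap was then -0.55, Igfbp2 -0.0137 and Thbs4 -0.17, and Kcnj10, Myh11, Tek and Pf4 did not pass.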
